A study of Homo sapiens with 3 samples.

Results

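REST is a zinc finger repressor of neuronal genes. With its corepressors and with regulators of neuronal splicing, it forms a set of 10 genes whose levels were read in H82R cells. The set was chosen by gene symbol and holds REST, its corepressors RCOR1, RCOR2, RCOR3 and KDM1A, and the splicing regulators SRRM4, SRRM3, PTBP1, PTBP2 and RBFOX2. All 10 were found among the 27574 genes of the count table. All 10 had at least 10 counts in every library, as 14612 of the 27574 did, and such genes are called detected here. H82 is an ATCC cell line, made from a human small cell lung cancer. All 3 libraries, named here replicates 1, 2 and 3, carry the same labels: lung as the tissue and treatment with cisplatin and etoposide, with the treated material described as a tumor. Cisplatin crosslinks DNA, and etoposide holds type II topoisomerases in place on it. There is 1 group and no untreated or parental sample, so the values are levels in treated cells and not an effect of the drugs. Whether the libraries are separate cultures is not stated, so every p-value reflects the spread of these samples alone, and that spread may be technical.

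REST binds a sequence called RE1 near many neuronal genes and silences them in cells that are not neurons. It recruits CoREST scaffold proteins, encoded by RCOR1, RCOR2 and RCOR3, which hold the histone demethylase KDM1A and histone deacetylases. Neuronal splicing is set in part by SRRM4, an activator of short neuronal exons, and by the repressors PTBP1, typical of dividing cells, and PTBP2, typical of neurons. The genes are wired to each other: REST silences SRRM4, SRRM4 adds an exon to REST that yields a truncated product, and PTBP1 makes PTBP2 skip an exon, which sends the PTBP2 transcript to decay.

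Of the 10 genes, 4 carry alternative exons known to be set by this circuit, and these are shown because they are where the splicing switch acts on its own members. The exon is in capitals, with 15 bases of the neighbouring exons of the same GENCODE 29 transcript on each side in lower case, on GRCh38 and on the plus strand of the gene. The KDM1A exon, at chr1:23066060-23066071, has 12 bases and is included in neurons. The REST exon, at chr4:56927615-56927664, has 50 bases, of which 38 are annotated as coding in that transcript. The PTBP1 exon lies at chr19:807869-807902 and the PTBP2 exon at chr1:96806419-96806452, and both have 34 bases.
KDM1A: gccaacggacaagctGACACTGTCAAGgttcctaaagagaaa
REST: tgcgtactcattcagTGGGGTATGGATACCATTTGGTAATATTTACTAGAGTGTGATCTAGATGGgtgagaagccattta
PTBP1: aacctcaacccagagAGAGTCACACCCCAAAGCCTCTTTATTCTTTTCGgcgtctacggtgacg
PTBP2: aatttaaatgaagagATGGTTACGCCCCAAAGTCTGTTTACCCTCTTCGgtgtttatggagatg
The KDM1A exon is a multiple of 3 and keeps the reading frame, and the exons of REST, PTBP1 and PTBP2 are not. The PTBP1 and PTBP2 exons are identical at 25 of 34 positions. Annotated transcripts that held the exon numbered 1 for KDM1A, 2 for REST, 6 for PTBP1 and 6 for PTBP2. Transcripts that spanned its position, with or without it, numbered 3, 7, 13 and 9. These exons make up 0.221%, 0.626%, 0.494% and 0.263% of the exon bases of KDM1A, REST, PTBP1 and PTBP2. The counts are per gene, so the use of these exons was not measured, and a gene's level covers all of its transcripts.

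The 3 libraries held 23868201 to 42610181 counts, with replicate 2 the deepest. Levels are given as CPM, the counts scaled to a common library size, and between genes as CPM per kb of exon, because a long gene collects more reads. The median detected gene stood at 25.2 CPM and at 5.58 CPM per kb. A count of 0 allowed at most 0.0702 to 0.125 CPM (3 counts in a library), which covers counting error only. All 7 small cell identity markers were detected and lay above the median detected gene in CPM, where 45.9% of all detected genes did, among them NEUROD1 at 112 ± 12 CPM per kb and NCAM1 at 6.97 ± 0.413 CPM per kb (SD, n = 3). Of 11 markers of other cell types, 6 were not detected: EPCAM, PTPRC, COL1A2, SFTPC, SCGB1A1 and KRT5, the last 3 with no count in any library. Of the 5 detected, 4 lay below the median detected gene, and the macrophage marker CD68, at 10.3 ± 1.69 CPM per kb, was not distinguished from it in CPM and lay above it per kb (0.89 ± 0.11 on the log2 scale, SE; limma, adjusted p = 6.11e-05). In the annotation 81.7% of the exon bases of CD68 belong also to another gene on the same strand; its part in the results was not tested.

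**Figure D1:**
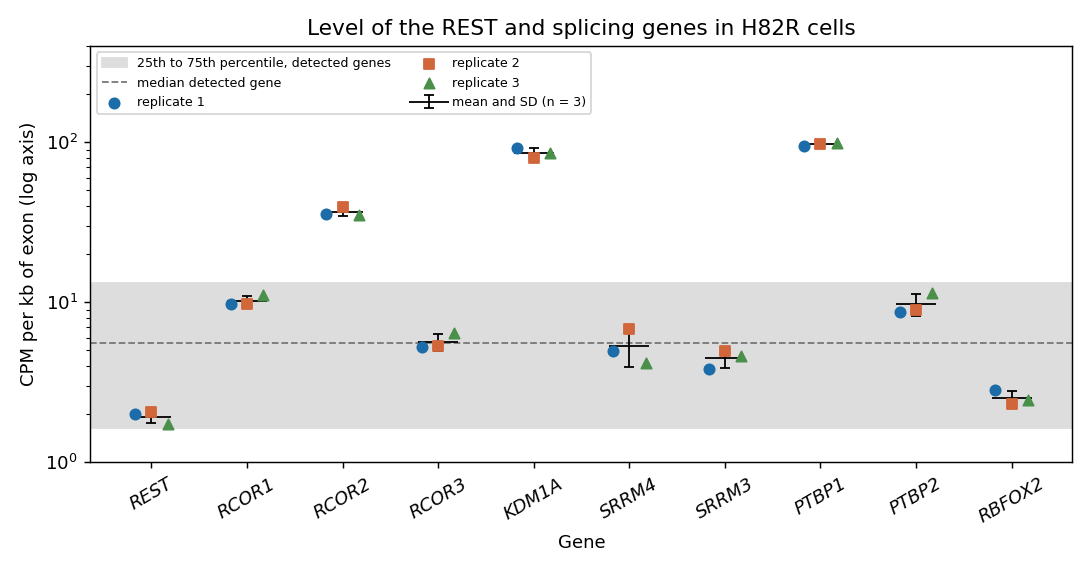
CPM per kb of exon (log axis) of the 10 genes in each of the 3 H82R libraries (points), with the mean and SD (n = 3), over the 25th to 75th percentile of all detected genes (grey band) and their median (dashed line). PTBP1, KDM1A and RCOR2 lie above the band, and REST, at 1.72 to 2.06 CPM per kb, is the lowest of the 10.

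REST was the lowest of the 10 genes in every library. It had 397, 703 and 330 counts in replicates 1, 2 and 3, which is 2.0, 2.06 and 1.72 CPM per kb. Only 27.1% of detected genes stood at or below its mean of 1.93 ± 0.179 CPM per kb (SD, n = 3). Against the median detected gene, REST was lower by a log2 difference of -0.71 ± 0.11 in CPM (SE; limma's one-sample moderated test, adjusted p = 0.000291), and per kb of exon by -1.52 ± 0.13 (adjusted p = 5.29e-06). When every gene with a count was kept, which lowers the median gene, REST lay above it by 1.59. By this test in CPM, 8 of the 10 genes lay above the median detected gene, where 45.9% of all 14612 detected genes did, 1 lay below, where 46.1% did, and RBFOX2 was not distinguished from it. Per kb the counts were 5 above and 3 below, against 45.3% and 45.0% of 13525 detected genes of known length, and RCOR3 and SRRM4 were the ones not distinguished. REST lies on chromosome 4 from 56907876 to 56966678. The 3 detected protein-coding genes whose level was nearest to REST over the 3 libraries, of 13335, were TRIM38 (1.96 ± 0.210 CPM per kb), RAB27A (1.94 ± 0.135) and ZNF250 (1.98 ± 0.193), at distances of 0.0510, 0.0576 and 0.0642 on the log2 scale.

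The corepressors were all more abundant than the repressor they serve. KDM1A, the demethylase that removes methyl groups from lysine 4 of histone H3, stood at 92.4, 79.9 and 85.1 CPM per kb, within the top few percent of detected genes (97.8% at or below). RCOR2 followed at 35.7, 39.4 and 35.2 CPM per kb, RCOR1 at 9.78, 9.69 and 11.0, and RCOR3 at 5.24, 5.30 and 6.42. KDM1A exceeded REST per kb by 46.1, 38.8 and 49.3 times in replicates 1, 2 and 3, and RCOR1 exceeded REST by 4.88, 4.70 and 6.40 times. The mean KDM1A to REST ratio was 72.4 with the longest transcript as the length, against 44.5 with the union of exons, and the mean RCOR1 to REST ratio was 9.58 with the coding length, against 5.28. In every library, then, the demethylase was well above its scaffolds and the scaffolds above REST. KDM1A also exceeded its paralog KDM1B, which lacks the part that binds CoREST, by 5.18, 4.79 and 5.70 times per kb.

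RCOR2 was the leading CoREST gene. It made up 70.4%, 72.4% and 66.9% of the summed CPM per kb of RCOR1, RCOR2 and RCOR3 in replicates 1, 2 and 3, while RCOR1, the founding member, made up 19.3%, 17.8% and 20.9%, and RCOR3 10.3%, 9.75% and 12.2%. RCOR2 had 2431, 4609 and 2311 counts, against 1506, 2569 and 1640 for RCOR1, although its exons are shorter, at 2738 bases against 6202. The RCOR1 to RCOR2 ratio per kb was 0.273, 0.246 and 0.313. With the coding length in place of the exon length its mean over libraries was 0.675, against 0.276, so RCOR2 stayed higher by a smaller margin. The order of RCOR1 and RCOR3 depended on the length used: RCOR1 was 1.87, 1.83 and 1.72 times RCOR3 per kb of exon, and 0.908 times on average with the longest transcript as the length, because the exons of all RCOR3 transcripts together cover 9092 bases and its longest transcript 4246. RCOR2 lies on chromosome 11 from 63911221 to 63916844, RCOR1 on chromosome 14 from 102592661 to 102730576, and RCOR3 and KDM1A on chromosome 1 from 211258377 to 211316385 and from 23019443 to 23083689.

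Genes listed as partners of REST and CoREST were all detected, 19 of 19, where 14612 of the 27574 genes in the table were. In CPM 17 (89.5%) lay above the median detected gene and 1 below it, where 45.9% and 46.1% of all detected genes did. Per kb, 14 lay above and 3 below, where 45.3% and 45.0% of detected genes of known length did. These counts include KDM1B, which lacks the part that binds CoREST and lay above in CPM and per kb. The chromatin remodelers CHD4 (63.6 ± 2.09 CPM per kb) and SMARCA4 (52.9 ± 2.36) and the KDM1A complex component GSE1 (32.6 ± 1.0) were highest (SD, n = 3). CHD4 shares 46.9% of its exon bases with another annotated gene on the same strand. The deacetylases HDAC1 and HDAC2 stood at 31.0 ± 2.0 and 18.6 ± 1.04 CPM per kb and the histone methyltransferase EHMT2 at 25.3 ± 1.0. The SIN3 scaffolds, which REST binds through its other repressor domain, stood at 10.3 ± 0.746 for SIN3A and 4.38 ± 0.150 for SIN3B. PHF21A, the CoREST complex reader of unmethylated histone H3, stood at 5.86 ± 0.865 CPM per kb. SMARCE1 was lowest, at 0.380 ± 0.121. It has 7 annotated pseudogenes and shares 19.8% of its exon bases with another annotated gene, and their part in this level was not tested.

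Genes that set the stability of the REST protein were also measured, since REST is controlled by protein turnover as well as by its RNA. All 13 were detected, where 14612 of the 27574 genes in the table were. In CPM 11 (84.6%) lay above the median detected gene and 2 below it, against 45.9% and 46.1% of all detected genes, and per kb 9 lay above and 3 below, against 45.3% and 45.0%. The ubiquitin ligase scaffold CUL1 (30.1 ± 2.53 CPM per kb), the phosphatase CTDSP2 (29.5 ± 3.09) and the deubiquitinase USP7 (25.9 ± 1.42) were highest. BTRC, the adaptor that marks REST for destruction, stood at 13.4 ± 0.349 CPM per kb, and USP15, a deubiquitinase of newly made REST, was lowest at 2.69 ± 0.807. RNA counts give no protein level for REST or for any of these.

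SRRM4 and SRRM3, the activators of neuronal microexons, were both present at about the level of the median gene. SRRM4 had 1091, 2570 and 880 counts, which is 4.96, 6.79 and 4.15 CPM per kb, and SRRM3 had 654, 1464 and 755 counts, or 3.83, 4.98 and 4.58 CPM per kb. Replicate 2 was the highest for both genes and their ranges overlapped. The SRRM3 to SRRM4 ratio per kb was 0.772, 0.734 and 1.10 in replicates 1, 2 and 3. Its exact (Clopper-Pearson) 95% intervals, which cover counting error only, were 0.700 to 0.851, then 0.688 to 0.783, then 1.0 to 1.22. With the union of exons as the length, then, the order differed between libraries (exact sign-flip test, p = 0.50). The mean ratio was 0.600 with the coding length and 1.56 with the longest transcript as the length, against 0.855 with the union of exons. In every library SRRM4 was the higher with the coding length and SRRM3 with the longest transcript. In CPM both lay above the median detected gene, SRRM4 by 0.87 ± 0.13 on the log2 scale (limma, adjusted p = 0.000268) and SRRM3 by 0.28 ± 0.10 (adjusted p = 0.0289). Per kb SRRM4 was not distinguished from it (-0.09 ± 0.14, adjusted p = 0.536) and SRRM3 lay below it (-0.32 ± 0.11, adjusted p = 0.0232). The call of SRRM3 in CPM was lost without replicate 2 (adjusted p = 0.0907), against the median of protein-coding genes (0.630) and with a filter of at least 1 CPM in every library (0.826). SRRM4 exceeded REST per kb by 2.48, 3.30 and 2.41 times, and the mean of this ratio was 5.50 with the coding length, against 2.70. SRRM4 lies on chromosome 12 from 118981495 to 119163051 and SRRM3 on chromosome 7 from 76201900 to 76287288.

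The promoters of SRRM3 and SRRM4 are shown because REST is known to silence SRRM4, and SRRM3 is the other microexon activator of the 10. They come from RefSeq on GRCh38.p14 and run from 250 bases before to 50 after the gene's start, both on the plus strand, at chr7:76201646-76201945 for SRRM3 and chr12:118981291-118981590 for SRRM4. Capitals mark exact matches on either strand to CAGCACC or GGACAGC, the cores of the left and right arms of the RE1 consensus, which do not overlap each other here.
SRRM3: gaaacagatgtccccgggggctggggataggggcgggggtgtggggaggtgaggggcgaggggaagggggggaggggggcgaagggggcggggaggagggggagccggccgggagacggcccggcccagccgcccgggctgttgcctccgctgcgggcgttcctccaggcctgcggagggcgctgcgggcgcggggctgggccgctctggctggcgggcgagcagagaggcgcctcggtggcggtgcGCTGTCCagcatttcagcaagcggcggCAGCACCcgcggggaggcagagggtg
SRRM4: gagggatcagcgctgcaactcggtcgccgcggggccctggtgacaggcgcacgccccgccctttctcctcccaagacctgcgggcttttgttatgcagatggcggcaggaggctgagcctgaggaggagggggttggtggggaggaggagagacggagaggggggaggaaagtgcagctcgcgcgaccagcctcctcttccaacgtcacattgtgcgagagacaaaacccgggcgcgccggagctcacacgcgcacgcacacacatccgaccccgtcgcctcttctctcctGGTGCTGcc
The SRRM3 window held CAGCACC on the plus strand at position 275, counted from the first base of the window, and GGACAGC on the minus strand at position 248. Its matches to the left and right arms thus lay on opposite strands. The SRRM4 window held CAGCACC on the minus strand at position 292 and no GGACAGC. Over all 35116 promoter windows, 7.75% held CAGCACC and 6.03% held GGACAGC. The table had 11 windows for 8 of the 10 genes, none of them for RCOR2 or RBFOX2, and CAGCACC was in 4 of the 11 windows (PTBP1, RCOR3, SRRM3 and SRRM4) and GGACAGC in 3 (RCOR1, REST and SRRM3). A match is a description of the letters only. A full RE1 was not searched for, and binding or an effect of REST at these genes was not tested. GC content was 77.7% for SRRM3 and 66.7% for SRRM4, against a median of 58.7% over all windows.

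PTBP1 was the most abundant of the 10 genes and PTBP2 was present beside it. PTBP1 stood at 94.7, 97.8 and 98.6 CPM per kb, with 98.1% of detected genes at or below its mean. PTBP2 stood at 8.73, 9.01 and 11.5 CPM per kb, with 2804, 4980 and 3559 counts, against 16198, 28763 and 16265 for PTBP1. The PTBP2 to PTBP1 ratio per kb was 0.0921, 0.0921 and 0.116, higher in replicate 3 than in the other libraries, and with the coding length its mean was 0.207, because the exons of PTBP2 cover 12937 bases in all and 1611 of them are coding. The libraries therefore held RNA of the repressor of dividing cells and, at a lower level, of the repressor of neurons. Against the median detected gene per kb, PTBP1 was higher by 4.13 ± 0.06 (SE) on the log2 scale (limma, adjusted p = 9.62e-10) and PTBP2 by 0.80 ± 0.10 (adjusted p = 6.26e-05). PTBP1 has an annotated pseudogene, PTBP1P, and reads shared with it may have been counted for either. PTBP1 lies on chromosome 19 from 797075 to 812327 and PTBP2 on chromosome 1 from 96721665 to 96823738.

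RBFOX2, which binds UGCAUG and promotes or represses exons by its position, was second lowest per kb of exon, at 2.83, 2.31 and 2.45 CPM per kb. With the coding length it stood at 16.8 CPM per kb and SRRM3 was lower. Per kb of exon RBFOX2 was 0.0299, 0.0236 and 0.0248 times PTBP1, and the mean of this ratio was 0.0446 with the coding length, against 0.0260. In CPM it was not distinguished from the median detected gene (0.01 ± 0.10 on the log2 scale, limma, adjusted p = 0.918), and per kb it lay below it by -1.13 ± 0.12 (adjusted p = 2.28e-05). With at least 1 CPM in every library it lay below in CPM too (-0.30, adjusted p = 0.0178). Its paralogs were lower still: RBFOX1 stood at 1.71 ± 0.859 CPM per kb, with 662, 670 and 227 counts, and the neuronal marker RBFOX3 at 0.0637 ± 0.0113, with 17, 30 and 12 counts. RBFOX1 differed widely between libraries, with replicate 1 highest and replicate 3 lowest. RBFOX2 lies on chromosome 22 from 35738736 to 36028425.

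**Figure D2:**
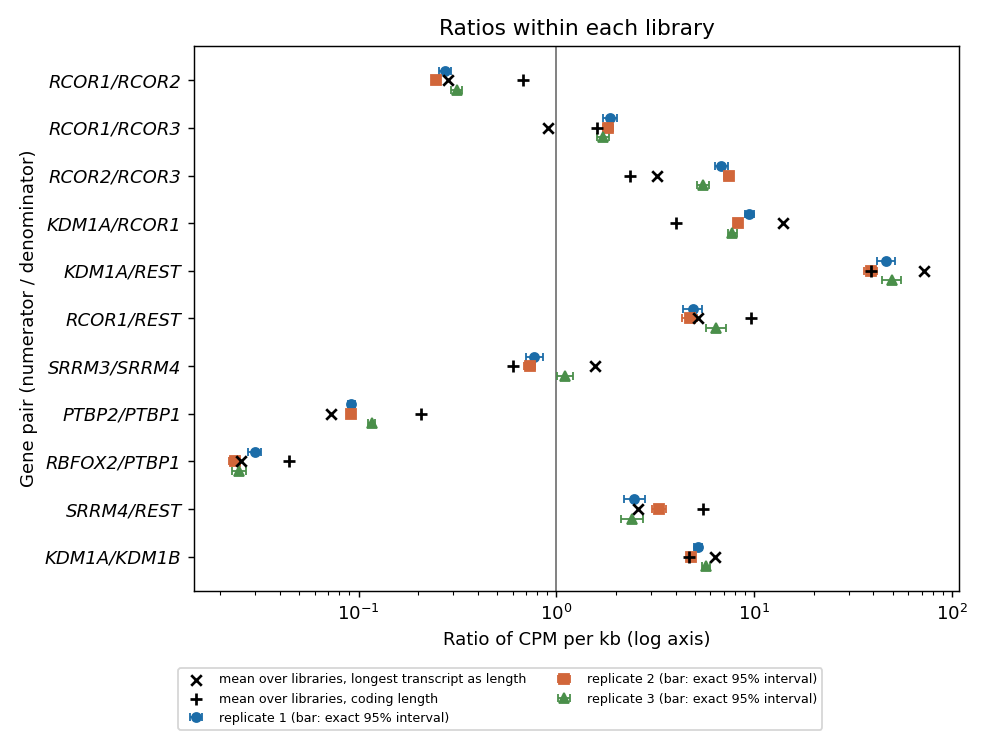
Ratios of CPM per kb (log axis) for 11 gene pairs, with 1 point for each library and its exact 95% binomial interval, which covers counting error only; crosses and plus signs are means over libraries with the longest transcript or the coding length in place of the exon length. SRRM3/SRRM4 straddles 1, RCOR1/RCOR3 changes side with the longest transcript, and the other 9 ratios stay on their side of 1 in every library and with each length.

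A two-sided exact test that flips the signs of the log2 ratios was run on each of the 11 pairs, and with 3 libraries it cannot give a p below 0.25. All except SRRM3/SRRM4 reached that value (0.275 after Benjamini-Hochberg adjustment over the 11), so the test could not call any of them. Their standard deviations over libraries had a median of 0.18 on the log2 scale.

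Other splicing regulators of neurons lay on both sides of the median detected gene. Of 13 neuronal ones, 9 were detected, where 14612 of the 27574 genes in the table were. In CPM 3 (33.3%) lay above it and 4 below, where 45.9% and 46.1% of all detected genes did, and per kb 1 lay above and 4 below, where 45.3% and 45.0% did. CELF3 (30.1 ± 4.99 CPM per kb) was highest, followed by the neuronal ELAV proteins ELAVL3 (6.07 ± 1.38) and ELAVL2 (5.79 ± 0.868), and RBFOX3 was the lowest detected. NOVA1, which shares the KDM1A exon with SRRM4 as a target, stood at 0.573 ± 0.136 CPM per kb. KHDRBS2, CELF6, NOVA2 and CELF5 were not detected. KHDRBS2 had 9, 26 and 15 counts in replicates 1, 2 and 3, so it missed the cutoff in replicate 1 only. CELF6 had 4, 9 and 2 counts and shares 93.2% of its exon bases with other annotated genes on the same strand, whose part in these counts was not tested. Among 22 broad or non-neuronal regulators, all were detected, 15 (68.2%) above and 6 below in CPM and 14 above and 6 below per kb, against the same shares of all detected genes. KHDRBS1 (134 ± 8.94 CPM per kb), MSI1 (63.2 ± 4.26) and SRRM2 (61.2 ± 0.647) were highest. PTBP3, the paralog found in blood and other tissues, stood at 16.7 ± 1.19 CPM per kb, and the epithelial regulators ESRP1 and ESRP2 at 0.542 ± 0.226 and 0.374 ± 0.0563. SRSF11 and RNPS1, which work with SRRM4 at microexons, stood at 34.5 ± 4.62 and 34.1 ± 1.52. MATR3, a partner of PTBP1, stood at 0.801 ± 0.163 CPM per kb, and 42.5% of its exon bases belong also to a second annotated gene of the same name.

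RE1 target genes, which REST silences outside neurons, lay on both sides of the median detected gene, in shares near those of all detected genes. Of 30, 28 were detected, where 14612 of the 27574 genes in the table were. In CPM 15 (53.6%) lay above it and 11 below, where 45.9% and 46.1% of all detected genes did. Per kb 11 lay above and 11 below, where 45.3% and 45.0% did, with a median log2 difference of -0.05. The synaptic vesicle gene SYP (39.7 ± 1.19 CPM per kb), SCG3 (37.7 ± 2.52) and the granin CHGA (29.4 ± 3.46) were highest. SNAP25, part of the vesicle fusion machinery, stood at 13.9 ± 2.22 and the glycine receptor subunit GLRA1, whose RE1 is well known in small cell lung cancer, at 13.6 ± 2.07. At the other end, the sodium channel SCN2A (0.193 ± 0.0151), the NMDA receptor subunit GRIN1 (0.154 ± 0.0196) and BDNF (0.140 ± 0.0377) were all low. The lowest detected was TUBB3 at 0.0961 ± 0.0150 CPM per kb, with 10, 16 and 12 counts, and 35.8% of its exon bases are shared with another annotated gene on the same strand. HTR1A (3, 7 and 4 counts) and AVP (no count) were not detected. STMN2, a growth cone protein, varied most among those above 10 CPM per kb, with 18.7, 33.8 and 10.4 CPM per kb in replicates 1, 2 and 3, and like SRRM4 it was highest in replicate 2 and lowest in replicate 3.

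Genes that host exons known to respond to SRRM4 or PTBP proteins were all detected, 21 of 21, where 14612 of the 27574 genes in the table were. REST, KDM1A and PTBP2 are themselves among the 21. In CPM 17 (81.0%) lay above the median detected gene and 4 below it, where 45.9% and 46.1% of all detected genes did, and per kb 15 lay above and 5 below, where 45.3% and 45.0% did. After KDM1A, the highest were the actin crosslinker FLNA (56.7 ± 9.22 CPM per kb) and the clathrin light chain CLTA (46.0 ± 2.40). The tyrosine kinase SRC, whose neuronal N1 exon PTBP1 represses, stood at 10.3 ± 0.199, and DLG4, which encodes PSD-95 and whose transcript decays when PTBP proteins skip an exon, at 11.4 ± 1.67. MEF2C was lowest at 0.486 ± 0.0774, against 17.3 ± 0.485 for MEF2D.

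**Figure D3:**
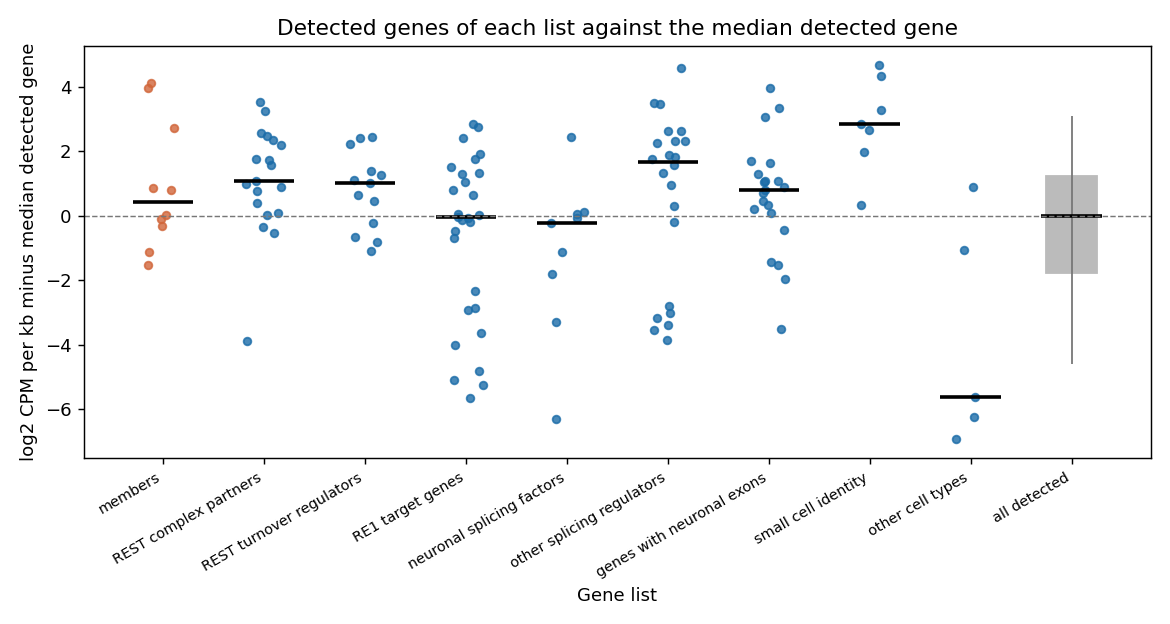
Difference of each detected gene from the median detected gene in log2 CPM per kb, for the 10 genes (orange) and 8 lists (blue), with each list's median as a black bar; at the right, the 5th to 95th percentile (line) and 25th to 75th percentile (box) of all detected genes. The RE1 targets spread on both sides of 0, with a median of -0.05, and the neuronal splicing factors lie at a median of -0.22.

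The 10 genes differed between the 3 libraries by more than counting error, and in relative spread SRRM4 varied most and PTBP1 least. In a chi-square test of homogeneity all 10 passed the threshold, where 68.7% of detected genes did, from SRRM4 (adjusted p = 3.31e-41) to REST (adjusted p = 0.0380). The coefficient of variation ran from 2.10% for PTBP1 to 25.6% for SRRM4, with 15.6% for PTBP2, 13.1% for SRRM3 and 11.7% for RCOR3 next, and the median over all detected genes was 11.8%, which SRRM4, PTBP2 and SRRM3 exceeded. The chi-square p-value depends also on the counts, because a gene with more counts can pass with a smaller relative spread. PTBP1, with 16198 to 28763 counts, passed this test at an adjusted p of 0.00110. REST, with 330 to 703 counts and a coefficient of variation of 9.29%, passed at 0.0380. SRRM4 was 1.64 times as high in its highest library as in its lowest, and PTBP1 1.04 times. RCOR1, RCOR3, PTBP1 and PTBP2 were highest in replicate 3, whereas REST, RCOR2 and SRRM4 were lowest there. Without replicate 3 the test called 6 of the 10 and REST, RCOR1, RCOR3 and PTBP2 were no longer called. Without replicate 1 it called 7 (not SRRM3, PTBP1 or RBFOX2) and without replicate 2 it called 8 (not REST or RCOR2). Over all genes with at least 10 counts in the libraries kept, it called 7686 without replicate 3, 7888 without replicate 1 and 5708 without replicate 2. With all 3 libraries it called 10044, so calls were lost across all genes and not only among the 10.

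**Figure D4:**
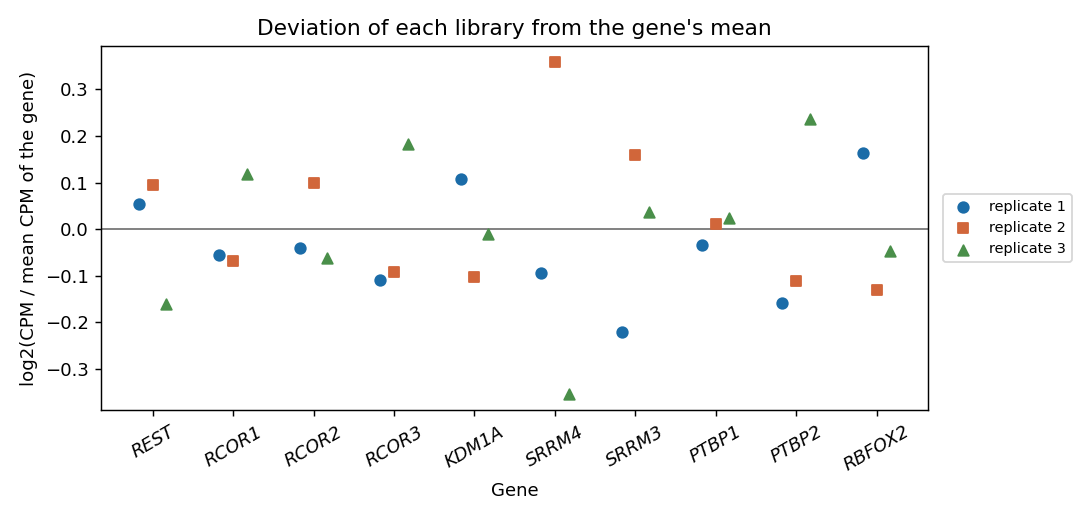
Deviation of each library from the gene's mean, as log2 of CPM over mean CPM, for the 10 genes. SRRM4 spans 0.36 in replicate 2 to -0.35 in replicate 3, and PTBP1 stays within 0.04 of 0.

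In order of level per kb, the genes were PTBP1, KDM1A, RCOR2, RCOR1, PTBP2, RCOR3, SRRM4, SRRM3, RBFOX2 and REST. The ranges of neighbours over the 3 libraries overlapped for RCOR1 and PTBP2, for RCOR3 and SRRM4, and for SRRM4 and SRRM3, and the 6 other pairs of neighbours did not overlap. PTBP1 and KDM1A were nevertheless close, with a ratio of means of 1.13. The order depended on the length, except that REST was lowest with each of the 3 lengths. With the longest transcript as the length, KDM1A came first at 153 CPM per kb, against 143 for PTBP1, RCOR3 (12.1) stood above RCOR1 (11.0) and PTBP2 (10.5), and SRRM3 (8.50) stood above SRRM4 (5.54). With the coding length, PTBP2 (78.2 CPM per kb) stood above RCOR2 (64.2) and RCOR1 (43.3), and RBFOX2 above SRRM3.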

How the data were processed

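Per the labels' protocols, TRIzol was used to extract total RNA and libraries followed Illumina's procedure. The authors deposited raw read counts per gene symbol as a single table with a column per library. The submitters' processing notes name STAR 2.6.1b and hg38 without saying how they were used; counting program, annotation and strand setting: not given in the sources used here. Without the last, reads of overlapping genes cannot be told apart.

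Columns were matched to libraries by title. Of 27587 names, 13 had become dates, as a spreadsheet makes them; they held 0.0665% to 0.0736% of counts and were left out. Library sizes were totals times TMM factors (edgeR 4.0.16; 0.993 to 1.00). CPM per kb used the union of exons in GENCODE 29 on GRCh38, the assembly hg38 names; a length was known for 92.6% of detected genes. Detected means at least 10 counts in every library. With 1 group no contrast exists, so edgeR's quasi-likelihood test of a contrast was not run. Levels were tested against the median detected gene with limma-trend (limma 3.58.1, R 4.3.3; two-sided, prior count 2), and spread with a chi-square test, both adjusted by Benjamini-Hochberg over the 14612 detected genes (per kb, over the 13525 of known length), at a threshold of 0.05. Both were tested on simulated data. The 10 genes, lists, pairs and motifs were chosen with earlier results of these data known. Genes named are the 10, the pairs' members, each list's 3 highest and lowest detected genes, those not detected, and the 3 nearest to REST; other list genes were named after their values were seen, for their known role. DESeq2 1.42.0 size factors were among the alternatives.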

Additional observations from a re-analysis of the deposited data

How the results depend on the processing

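With plain totals, DESeq2 size factors, limma-voom or a prior count of 0.5, 8 of the 10 genes stayed above and 1 below the median detected gene. The same held with an F test of the intercept computed from edgeR's quasi-likelihood fit, in place of edgeR's own test function. Per kb of exon the counts were 5 above and 3 below, SRRM4 turned to -0.095, SRRM3 to -0.32 and RBFOX2 to -1.13 on the log2 scale, and the level of RCOR3 was no longer called. A filter of at least 1 CPM in every library gave 7 above and 2 below, with SRRM3 at -0.025 and RBFOX2 at -0.30. Keeping every gene with a count, which lowers the median gene, put 10 above and 0 below, with REST at 1.59. Against the median of protein-coding genes SRRM3 was not called. Leaving out each library gave 7 to 8 above and 1 below, and 6 to 8 of the 10 with spread beyond counting error. With DESeq2 size factors or a threshold of 0.01, 9 of the 10 had such spread and REST lost its call. At 0.01 the chi-square test called 8581 of all 14612 detected genes, against 10044 at 0.05. Per kb, neuronal splicing factors had 1 gene above, markers of other cell types 1 above, and REST complex partners 3 below. With at least 1 CPM, markers of other cell types had 2 below. Except per kb, shares of all genes above or below under these settings are not given here, so those counts show only how the calls moved.

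The ratios moved with the length, as log2 means. With the coding length they were -0.57 for RCOR1/RCOR2, 0.67 for RCOR1/RCOR3, 1.24 for RCOR2/RCOR3, 2.01 for KDM1A/RCOR1, 5.27 for KDM1A/REST, 3.26 for RCOR1/REST, -0.74 for SRRM3/SRRM4, -2.28 for PTBP2/PTBP1, -4.49 for RBFOX2/PTBP1, 2.46 for SRRM4/REST and 2.23 for KDM1A/KDM1B. With the longest transcript they were -0.14 for RCOR1/RCOR3 and 0.64 for SRRM3/SRRM4, both reversed, 1.68 for RCOR2/RCOR3, 3.80 for KDM1A/RCOR1, 6.18 for KDM1A/REST, -3.78 for PTBP2/PTBP1 and 2.66 for KDM1A/KDM1B. No paired analysis was possible because the samples form 1 group.

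Depth did not limit the 10 genes, each with at least 330 counts in a library. Counts per gene cannot show exon use, protein level or a drug effect.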
